A study of Mus musculus with 182 samples.

Results

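The genes described here are 53 autosomal genes whose reads came mainly from the Cast allele in single cells of wild-type mouse embryos, whichever parent had passed that allele on. They were chosen by measured values. The authors' allelic share of a gene in a cell was used where the gene had a count of 10 or more, over cells of the 8-, 16-, 32- and 64-cell stages (8C, 16C, 32C and 64C). A gene was eligible with a share in at least 8 cells of each cross, and 6763 autosomal genes of the 15253 genes with shares were. Members had a mean paternal share of at least 0.85 where the father was Cast and at most 0.15 where the father was B6, and Usp29 was left out by name (0.823 and 0.236). The same thresholds turned around, for reads mainly from the B6 allele, held for 63 genes.

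The study measured RNA in 182 single mouse cells to follow imprinted X inactivation. C57BL/6J (B6) and Cast/EiJ (Cast) mice were mated naturally in both directions and the embryos were not cultured. In BC embryos the mother was B6 and the father Cast, and CB embryos had the reverse parents. The rule used 58 BC and 32 CB wild-type cells of 8C to 64C, of both sexes and without an Xist deletion. Cells outside the rule were 10 BC and 6 CB wild-type blastomeres of the 2- and 4-cell stages (2C and 4C), 4 B6 and 3 Cast oocytes, and 69 cells of CB embryos labelled with an Xist deletion, 60 female (8C to 64C) and 9 male (32C and 64C). In the females the paternal Xist allele was deleted. Sons inherit no paternal X, so the males carry no paternal Xist allele and are called deletion cells here by their label. In all 69 the Cast allele was the maternal one. Each sample was 1 cell, and the labels name no animal or embryo. Cells with the same stage, cross, sex and genotype were therefore taken as 1 group, giving 25 wild-type and 6 deletion groups, and p-values measure the spread between groups, part of which may be technical.

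A hybrid embryo holds 1 genome of each parent. A gene that is read more from 1 strain's allele in both reciprocal crosses differs in cis between the strains, or is read unequally by the assay, while an imprinted gene follows the parent and changes strain when the cross is turned round. The RNA of the oocyte is degraded after fertilization while the embryo's own genome is switched on, so at the earliest stages a maternal share can still be RNA that the oocyte made. Single cells also read a weakly expressed gene from 1 allele at a time by chance, because transcription comes in bursts and few molecules are captured.

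Total counts per cell ranged from 2.54 M to 40.05 M with a median of 8.78 M, and the 7 oocytes had 2.54 M to 4.23 M. The labels of 1 cell of 2C, the only CB female there, name its strain against its title. Summed oocyte markers (6 of 6 found, among them Zp3 and Gdf9) reached 14450 to 42259 CPM (a gene's count scaled to a common library total) in the oocytes, where cumulus and granulosa markers stayed at 4.37 CPM or below. Of the 60 deletion females, 2 cells of 8C had Xist above 10 CPM (21.2 and 80.6 CPM), against the label, and results that use them are given without them where that mattered.

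By what they are known to do, the genes form no single pathway. Immune and cell-surface genes are Cd84 (a lymphocyte receptor of the SLAM family), Oas1a and Oas1g (2′-5′ oligoadenylate synthetases of the interferon response), H2-K2 (a class I histocompatibility gene), Plscr1 (a phospholipid scramblase induced by interferon), 2010109I03Rik (Ly6m in RefSeq), Card10 and Trim47. Metabolic genes are Atic (purine synthesis), Pnpla3 (a lipase of lipid droplets), Acsf2 (a mitochondrial acyl-CoA synthetase), Idi2 (an isopentenyl diphosphate isomerase), Ptges (prostaglandin E synthase), P4ha3 (a collagen prolyl 4-hydroxylase subunit), Neu3 (a membrane sialidase), Pigp (synthesis of GPI anchors), Cox7c (a subunit of cytochrome c oxidase), Adtrp (a hydrolase of fatty acid esters), Pde5a (a phosphodiesterase of cyclic GMP), Adprm, Hddc3 and Nt5dc1. Genes of DNA and transcription are Msh4 and Mnd1 (meiotic recombination), Chtf8 (sister chromatid cohesion), Morf4l1 (a chromatin protein), Foxo3 and Usf1 (transcription factors). Signalling, trafficking and structural genes are Rragd (a GTPase upstream of mTORC1), Shc3 and Lims2 (adaptors), Pim1 (a kinase), Ap1s3 (a subunit of a clathrin adaptor), Cap1 (an actin regulator), Hyou1 (a chaperone of the endoplasmic reticulum), Sema3e (a guidance ligand), Tas1r1 (a taste receptor subunit), Mcc, Serinc3, Tmem141 and Sbp. The others are gene models and pseudogenes named by number or clone: Gm13498, Gm14325, Gm16223, Gm6639, Gm6756, Gm8615, Gm9376, 6030443J06Rik, G730013B05Rik, D17Ertd648e and Pisd-ps1.

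In RefSeq (GRCm38.p6, the build called mm10 in the submitters' processing notes) all 53 members were found, of which 43 are protein coding, 5 are long non-coding RNAs and 5 are transcribed pseudogenes. Among eligible genes 98.4% were coding, 0.961% were long non-coding and 0.414% were transcribed pseudogenes. Models named Gm and a number made up 13.2% of the members and 0.532% of eligible genes. Among the genes read mainly from the B6 allele such models made up 7.94%, and long non-coding RNAs and transcribed pseudogenes 6.35% each. Pseudogenes and genes with near-identical copies can lose or gain reads to those copies in counting and in allele assignment, which was not tested here. RefSeq lists Gm13498, Gm8615, Gm6756, Pisd-ps1 and H2-K2 as transcribed pseudogenes, and Oas1a and Oas1g are close paralogs.

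The members lay on 16 of the 19 autosomes, and only 4 pairs lay within 1 Mb of each other. Oas1g (chr5:120876142-120887613) and Oas1a (chr5:120896256-120907544) are neighbours 8.64 kb apart. Cd84 (chr1:171839697-171890718) lay 0.421 Mb from Usf1 (chr1:171411307-171418954), and Neu3 (chr7:99811434-99828457) lay 0.457 Mb from P4ha3 (chr7:100285489-100319701). The 97 other eligible genes within 100 kb of a member had a strain part (BC paternal share minus CB paternal share, divided by 2) with a median of -0.0166, and all eligible genes one of -0.0168. Of these neighbours 4 reached 0.2 or more, which is 4.12% against 3.46% of eligible genes. They were Wdfy1 beside Ap1s3 (0.323), Thap3 beside Tas1r1 (0.234), and Platr17 (0.221) and Kifc1 (0.206) beside H2-K2.

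In the cells that chose them, the members' mean paternal share had a median of 0.9 in BC and 0.0656 in CB, while eligible genes had 0.474 and 0.505. These values are a description, since the rule used them. From here on shares are given as the Cast share, which is the paternal share in BC and 1 minus it in CB. The members nearest to the thresholds were Pnpla3 (0.853), Ptges (0.854) and P4ha3 (0.855) in BC, and Gm16223 and Mcc in CB, with paternal shares of 0.142 and 0.137. Just outside lay Cox15 (0.848), Zfp97 (0.839) and Msmo1 (0.839) in BC, and Rsph1 (0.167), Sav1 (0.177) and Tmem87a (0.211) in CB.

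**Figure D1:**
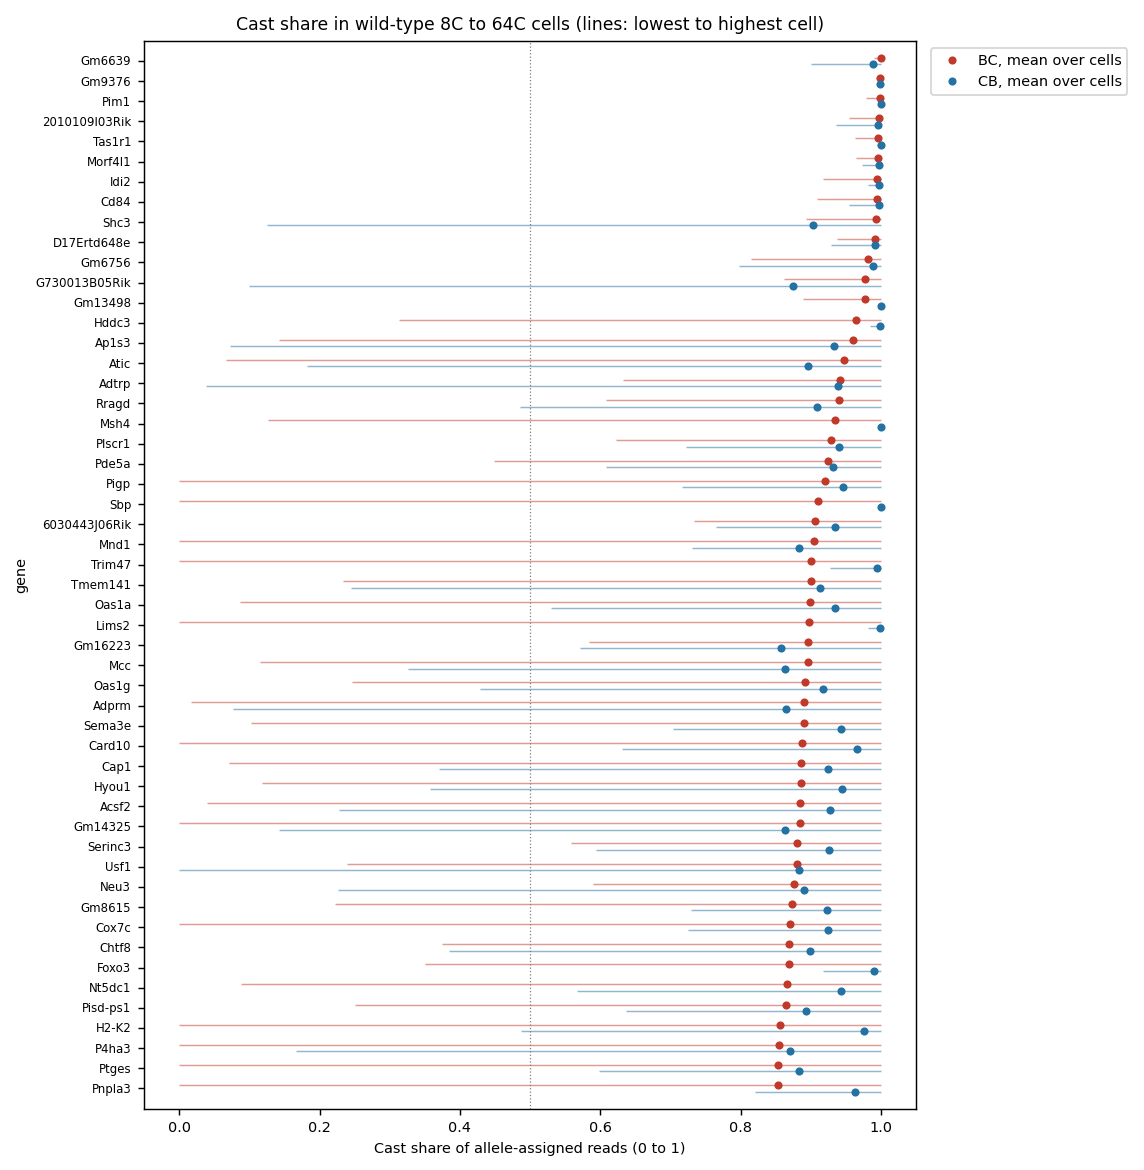
Cast share of 52 of the 53 genes in wild-type 8C to 64C cells of the BC (red) and CB (blue) crosses. Points are means over cells with a count of 10 or more and lines run from the lowest to the highest cell. The upper genes, from Gm6639 down to Cd84, have short lines near 1, while most others have at least 1 cell far below their mean.

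For 37 members the median cell stood at 0.99 or more in both crosses, and means below that came from few cells. Both means were 0.97 or more for 11 members. Cd84 had shares between 0.909 and 1 in 44 BC cells (median 1) and between 0.955 and 1 in 29 CB cells (median 1). Morf4l1 lay between 0.964 and 1 in 52 BC cells and between 0.973 and 1 in 31 CB cells. Gm9376 was read in all 58 BC cells, with a lowest share of 0.992, and in all 32 CB cells, with a lowest share of 0.994. Gm9376 had a Cast share of 1 in a B6 oocyte and Morf4l1 had no share in any, so their shares describe the reads that were assigned. 2010109I03Rik, Pim1, Idi2, D17Ertd648e, Gm6639, Gm6756 and Tas1r1 had means of 0.982 or more in each cross, and Gm13498 had means of 0.977 and 1. Gm6756 had lower cells, with 0.798 in the 1 CB male cell of 16C and a mean of 0.870 over 3 BC male cells of 16C.

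A graded lean was seen in strongly expressed genes among others. Serinc3 ran from 0.558 to 1 in 58 BC cells (median 0.916) and from 0.593 to 1 in 32 CB cells (median 0.963). Ptges ran from 0 to 1 in 50 BC cells (median 0.880) and from 0.598 to 1 in 31 CB cells (median 0.905). Cox7c had medians of 0.889 in 49 BC and 0.942 in 31 CB cells. In these genes the B6 allele was read in most cells at a minor share, in contrast to Cd84 or Morf4l1. Rragd (0.608 to 1 in 31 BC cells, 0.486 to 1 in 15 CB cells), Adtrp (0.632 to 1 in 50, 0.0385 to 1 in 25) and Pigp (0 to 1 in 46, 0.716 to 1 in 29) had medians of 0.960 or more and single low cells.

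Single cells that went the other way were uncommon. Over all members, 84.4% of 1580 pairs of gene and cell in BC had a Cast share of 0.85 or more and 4.05% one below 0.5, and in CB 87.6% and 2.63% of 914 pairs. In BC the share of pairs below 0.5 was 2.05% at counts of 10 to 49, 6.67% at 50 to 199, 4.48% at 200 to 999 and 0.615% at 1000 or more. In CB these were 0%, 4.45%, 2.92% and 1.41%, and in both crosses the percentage was highest at 50 to 199. The rule averaged these same wild-type pairs, so it keeps those below 0.5 few, and the percentages are a description only. Among eligible genes in BC 50.4%, 53.0%, 53.2% and 54.2% of pairs lay below 0.5 at these counts. For 13 members no wild-type cell of 8C to 64C and no deletion cell lay below 0.5, and for 9 of them no 2C or 4C cell either. These counts include cells that chose the members, and no such count was made over eligible genes. They also depend on how many cells had a share, which was 8 to 58 in BC, 8 to 32 in CB and 6 to 69 in deletion cells. They are a description too. The number of allele-assigned reads behind a share is unknown, so no interval is given for a share.

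The members' levels, as the mean over 16 wild-type groups of 8C to 64C, ranged from 1.4 CPM (Pde5a) to 947 CPM (Cd84) with a median of 14.8 CPM. Other high levels were those of Ptges (703 CPM), Serinc3 (337 CPM), Morf4l1 (235 CPM), Rragd (217 CPM), Gm9376 (164 CPM), Adtrp (130 CPM), Pigp (100.4 CPM) and Gm13498 (81.9 CPM). CPM are not divided by length, so this order of levels mixes expression with how well each gene is captured. Levels summed over both alleles were also set side by side between the crosses. The median log2 ratio of BC over CB, on CPM plus 1, was 0.21 for members and 0.09 for eligible genes, and 84.9% of members and 87.5% of eligible genes lay within 1 of 0. Cd84 had 655 CPM in BC and 1239 CPM in CB groups, and Gm6639, at 1.43 and 5.88 CPM, was lower in BC in 7 of 8 pairs of groups of the same stage and sex and at 0 in both groups of the other. Of the 8 members beyond 1, 5 were higher in BC (Foxo3, Cap1, Hyou1, Hddc3 and Shc3) and 3 in CB (Gm6639, Card10 and Cd84). Foxo3 was farthest from 0, at 18.3 CPM in BC and 7.02 CPM in CB groups (log2 ratio 1.55), and higher in BC in 7 pairs.

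The embryos labelled with the Xist deletion measured the same genes in cells that the rule had not used. Most members kept their high Cast share. Of 50 members with a value in 4 or more of the 6 groups, 42 were called toward Cast (limma, Benjamini-Hochberg adjusted p under 0.05 over all 8368 genes tested) and 0 toward B6. Over all genes tested 3.55% were called toward Cast and 5.71% toward B6. The members' median Cast share minus 0.5 was 0.43, and that of all genes 0.00017. In the deletion embryos, Cast and maternal cannot be told apart, since all came from the CB cross.

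The genes read almost wholly from Cast in wild types had Cast shares near 1 in every deletion group. Cd84 had Cast shares of 0.998 in 8C females, 0.998 in 16C females, 0.999 in 32C females, 0.997 in 64C females, 0.989 in 32C males and 1 in 64C males (mean 0.997 ± 0.0042, SD, n = 6 groups, limma adjusted p = 4.25e-07). Morf4l1 lay between 0.991 and 0.999 (mean 0.996 ± 0.0027, adjusted p = 4.25e-07 by limma), and Gm9376, with a share in all 69 deletion cells, had a mean of 0.999 ± 0.00028 (adjusted p = 3.97e-07 by limma). None of the 6 groups approached 0.5 for these genes. D17Ertd648e, 2010109I03Rik, Gm6756, Gm6639, Lims2, Pim1, Sbp, Ap1s3, Tas1r1 and Idi2 were also called, with a mean over groups of 0.98 or more. Single groups were lower, down to 0.961 in 16C females for Ap1s3. Trim47 (0.983), Hddc3 (0.975), Mcc (0.966), Sema3e (0.962), Chtf8 (0.953), Atic (0.946), Pigp (0.944), G730013B05Rik (0.943), Pde5a (0.943), Tmem141 (0.933), Adtrp (0.933) and Msh4 (0.931) were called too, the value in parentheses being the mean over groups.

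The graded genes stayed graded. Cox7c lay between 0.892 and 0.950 (mean 0.919 ± 0.020, SD, n = 6 groups, limma adjusted p = 3.91e-06). Serinc3 lay between 0.760 and 0.928 (mean 0.878 ± 0.062, adjusted p = 0.000126 by limma), and Ptges between 0.796 and 0.919 (mean 0.860 ± 0.053, adjusted p = 0.000110 by limma). For these genes every group stood above 0.75 and below 0.96. Rragd (0.862), Oas1g (0.888), Oas1a (0.868), H2-K2 (0.885), Plscr1 (0.913), Gm14325 (0.918) and Gm16223 (0.853) were called too.

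**Figure D2:**
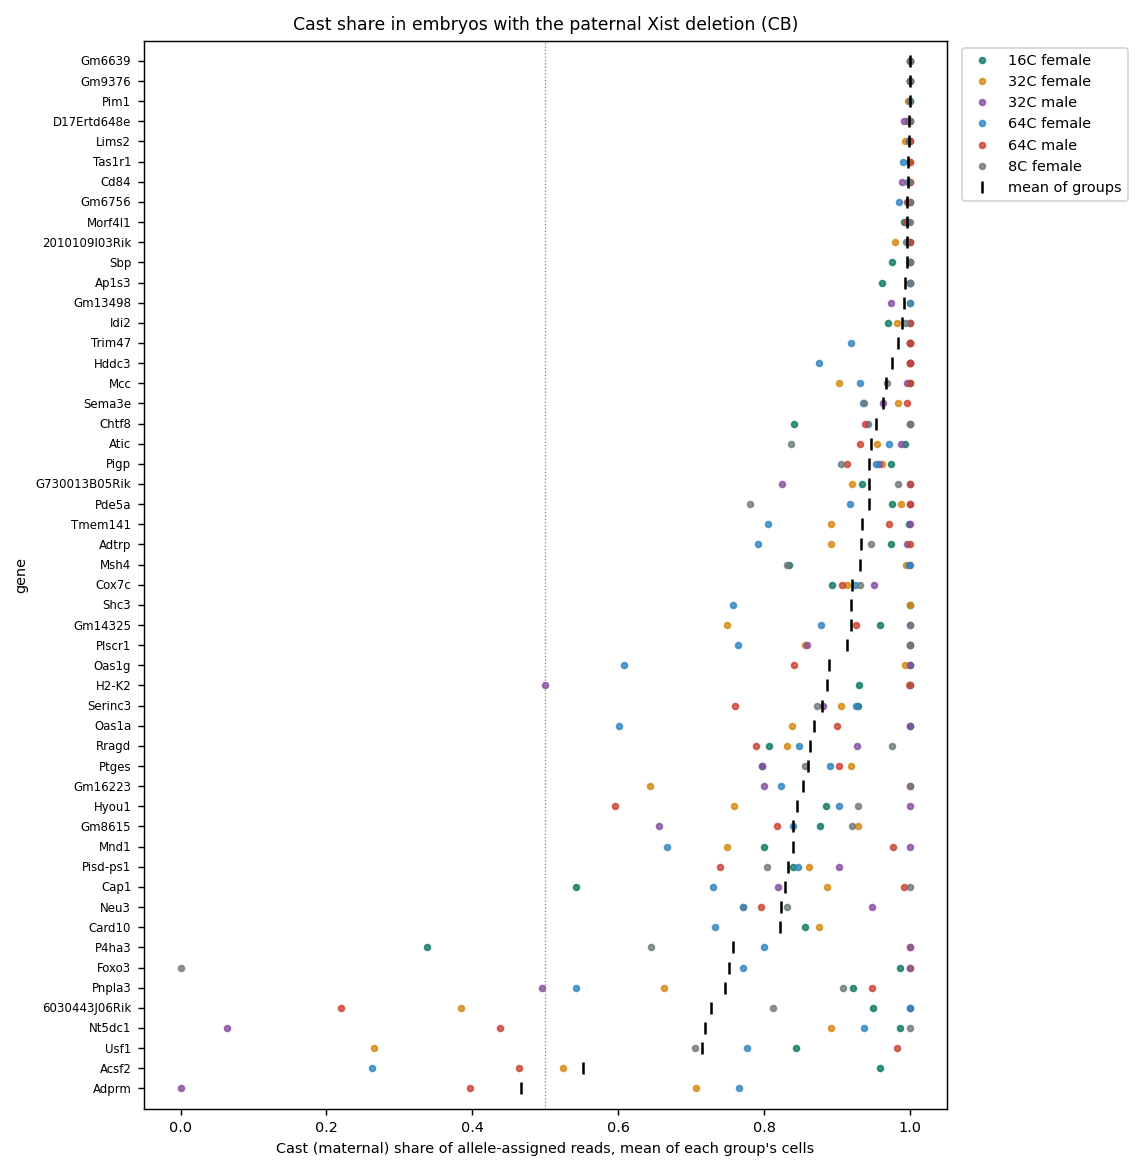
Cast share of 52 of the 53 genes in the 6 groups of embryos labelled with the Xist deletion, all CB, so that Cast is the maternal allele. Each coloured point is the mean over the cells of 1 group with a count of 10 or more and the black tick is the mean of the groups. From Gm6639 down to Idi2 all points lie above 0.95, and Adprm, at the bottom, has points on both sides of 0.5.

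For the 6763 eligible genes the mean Cast share over deletion groups had a median of 0.501 and an upper quartile of 0.573. Over the deletion groups 38 of 53 members had a mean of 0.85 or more and 15 fell below it. Of those 15, Card10 (0.732 to 0.874 in 3 groups, mean 0.821) was not tested, and 6 were still called toward Cast. Neu3 ran from 0.770 to 0.948 (mean 0.823 ± 0.074, SD, n = 5 groups, limma adjusted p = 0.00285) and Pisd-ps1 from 0.739 to 0.903 (mean 0.832 ± 0.056, n = 6, limma adjusted p = 0.000242). Gm8615 ran from 0.656 to 0.929 (mean 0.840 ± 0.0998, n = 6, limma adjusted p = 0.0018) and Hyou1 from 0.596 to 1 (mean 0.845 ± 0.145, n = 6, limma adjusted p = 0.00797). All of their groups lay above 0.5. Cap1 ran from 0.543 to 1 (mean 0.828 ± 0.174, n = 6, limma adjusted p = 0.0215) and Mnd1 from 0.667 to 1 (mean 0.839 ± 0.145, n = 5, limma adjusted p = 0.0194). The other 8 did not pass the test. Adprm was at 0.706 and 0 in 32C females and males and at 0.765 and 0.397 in 64C females and males (mean 0.467 ± 0.351, SD, n = 4 groups, limma adjusted p = 0.936). Acsf2 was at 0.958 in 16C, 0.523 in 32C and 0.262 in 64C females and at 0.464 in 64C males (mean 0.552 ± 0.293, SD, n = 4 groups, limma adjusted p = 0.876). In these 2 genes the groups lay on both sides of 0.5.

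The remaining 6 had wide spread. Usf1 ran from 0.266 to 0.982 (mean 0.714 ± 0.271, SD, n = 5 groups, limma adjusted p = 0.328) and Foxo3 from 0 in the only 8C female cell with a share to 1 (mean 0.751 ± 0.431, n = 5, limma adjusted p = 0.476). Nt5dc1 was at 0.0638 in 1 male cell of 32C, at 0.438 over 3 male cells of 64C and between 0.891 and 1 in the 4 female groups (mean 0.719 ± 0.384, n = 6, limma adjusted p = 0.444). 6030443J06Rik was lowest in 64C males (0.220) and 32C females (0.385), each a value of 1 cell, and reached 1 (mean 0.727 ± 0.341, n = 6, limma adjusted p = 0.366). P4ha3 ran from 0.337 in 16C females to 1 (mean 0.756 ± 0.278, n = 5, limma adjusted p = 0.251) and Pnpla3 from 0.495 to 0.947 (mean 0.746 ± 0.205, n = 6, limma adjusted p = 0.107). All 6 had at least 1 group below 0.5. The 8 members not called had shares in 13 to 39 deletion cells, and the 42 called in 12 to 69. Gm13498 (0.991) and Shc3 (0.919), with values in 3 groups, were also not tested.

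The calls of Cap1, Gm16223, H2-K2, Mnd1, Oas1a and Oas1g were narrow, and were lost by limma when 1 of several groups was left out, with mean Cast shares minus 0.5 that ran from 0.293 (Cap1) to 0.4 (Oas1g) where they were lost in this way. None of the 6 was called by limma on an arcsine square root scale (adjusted p = 0.0663 to 0.0923). H2-K2 (adjusted p = 0.0456 with all groups) was not called without the 16C, 32C or 64C females or the 64C males (0.130 to 0.136 by limma). It has no value in 8C females, so without that group only the prior and the adjustment, both taken over genes, changed (0.0501 by limma). Cap1 was not called without the 8C or 32C females or either male group (0.0604 to 0.0715 by limma), nor without the 2 cells of 8C that held Xist (0.0557). Gm16223 was not called without the 8C or 64C females or either male group (0.0547 to 0.0602), and Mnd1 not without the 16C females or either male group (0.0547 to 0.0632). Oas1a (0.0673 to 0.0744) and Oas1g (0.0578 to 0.0719) were not called without the 16C or 32C females or either male group. The other 36 calls were made under all alternatives in which the gene was tested. In single deletion cells, 80.1% of 1791 pairs of gene and cell had a Cast share of 0.85 or more and 5.08% one below 0.5. Pairs of eligible genes in these cells were split by counts of 10 to 49, 50 to 199, 200 to 999 and 1000 or more. At each, at most 35.2% of eligible pairs had a Cast share of 0.85 or more and at least 48.76% one below 0.5.

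The 2C and 4C embryos came from both crosses, so there the strain can be told from the parent. Of 27 members with values in at least 2 groups of each cross, 15 were called toward Cast and 0 toward B6 (limma of 4 BC against 3 CB groups, Benjamini-Hochberg over 5873 genes). Over all genes tested 2.28% were called toward Cast and 4.10% toward B6. The estimate is the strain part, 0.5 where all reads in both crosses are Cast. Its median was 0.38 for members and -0.012 for all genes tested. Above 0 lay 26 of 27 members and 2645 of all 5873 genes. In the 4C groups alone, 2 BC and 1 CB, the strain part was above 0 for all 33 members with values and for 2845 of all 6239 genes. Its median was 0.423 for these members and -0.0103 for all genes. With 1 CB group no call is read from this setting.

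Gm9376, D17Ertd648e and 2010109I03Rik had high Cast shares in the groups of 2C and 4C where they were measured (2010109I03Rik in 6 of 7). Gm9376 had Cast shares of 0.993 and 0.998 in 2C BC females and males and 0.998 in both 4C BC groups, and 0.996, 0.995 and 0.998 in the 3 CB groups (strain part 0.497 ± 0.021, SE, limma adjusted p = 0.000236). D17Ertd648e, at its highest level at 2C, lay between 0.955 and 0.965 in the 4 groups of 2C and up to 0.991 at 4C (strain part 0.471 ± 0.021, SE, limma adjusted p = 0.000236). The Cast share of both genes overlapped between the crosses and stayed far from 0.5. Gm9376 had a Cast share of 1 in the only B6 oocyte with a share, where no Cast allele is present. Its strain part therefore describes assigned reads, and whether its B6 allele can be seen was not tested. Gm6639 (0.468), Gm14325 (0.491), Ptges (0.458), Pnpla3 (0.461), Adtrp (0.444), Pde5a (0.443), Nt5dc1 (0.442), G730013B05Rik (0.423), Sema3e (0.419), Cox7c (0.376), Pisd-ps1 (0.287) and Neu3 (0.228) were called as well, each value being the strain part. Nt5dc1 and Pnpla3 were called here and not in the deletion groups. Without the 2C cell whose strain label goes against its title, 23 members were tested and 11 called. Gm14325, Nt5dc1 and Sema3e then had too few CB groups to be tested, and Neu3 was not called (adjusted p = 0.056 by limma). Neu3 was also not called without the 2C BC male, the 4C BC female or the 4C BC male group. Nt5dc1 was not called with stage as covariate or on the arcsine square root scale (adjusted p = 0.0932 and 0.0628 by limma).

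**Figure D3:**
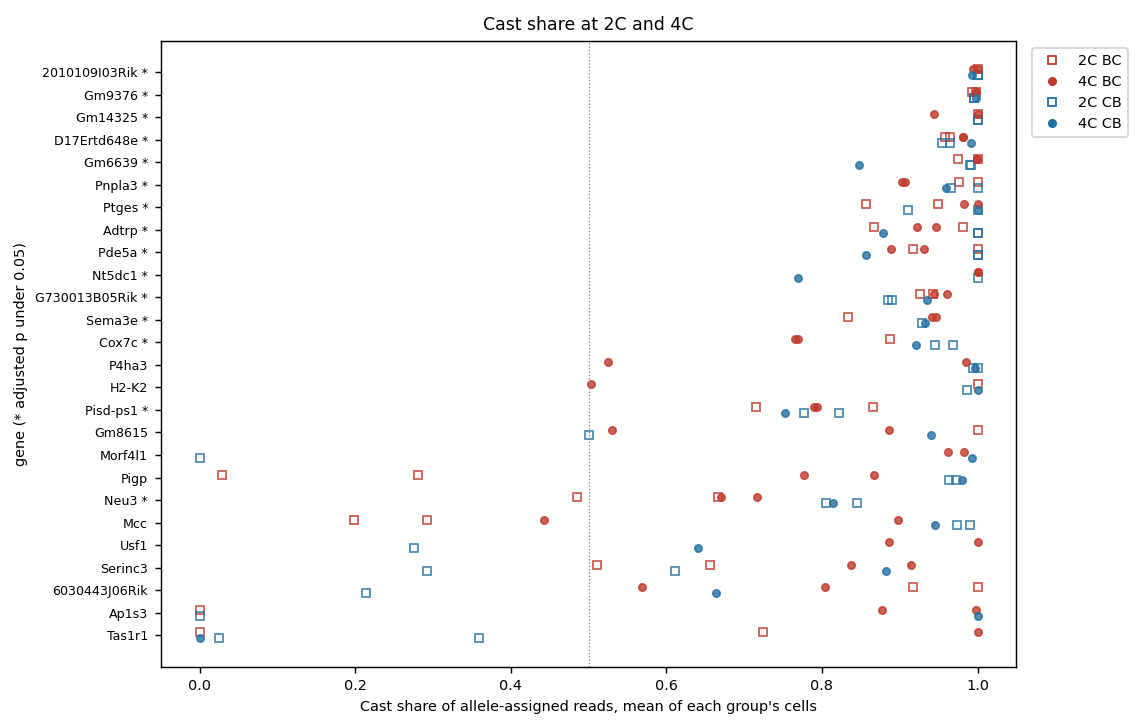
Cast share of 26 of the 27 genes tested at 2C (open squares) and 4C (filled circles) in BC (red) and CB (blue) groups, each point the mean over a group's cells. Genes with an asterisk had an adjusted p under 0.05. Pigp and Mcc have 2C BC points below 0.3 and CB points above 0.94.

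Of the 12 members not called, Pigp and Mcc were low in BC at 2C. Pigp had Cast shares of 0.281 and 0.0284 in 2C BC females and males, 0.777 and 0.867 in 4C BC females and males, and 0.964 to 0.980 in CB (strain part 0.230 ± 0.107, SE, limma adjusted p = 0.301). Mcc had 0.292 and 0.199 in the 2C BC groups, 0.443 and 0.897 in the 4C BC groups, and 0.945 to 0.9898 in CB (strain part 0.214 ± 0.0844, SE, limma adjusted p = 0.220). The B6 mothers' oocytes held both RNAs: Pigp stood at 203, 172, 306 and 225 CPM and Mcc at 125, 213, 137 and 166 CPM in the 4 B6 oocytes. Adtrp, at 68.8 to 102.5 CPM in the B6 oocytes, had Cast shares of 0.981 and 0.867 in the 2C BC groups. Over 42 members the B6 oocyte level and the mean Cast share of BC cells of 2C and 4C had a Spearman correlation of -0.108, a description of members that share libraries. What part of the 2C reads came from the oocyte was not tested. By 8C to 64C the BC means were 0.920 and 0.896.

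Tas1r1, Ap1s3 and Morf4l1 also fell outside. Tas1r1 ran from 0 to 1 over 6 groups and was the only gene of the 27 with a strain part below 0 (-0.149 ± 0.136, SE, limma adjusted p = 0.609). Ap1s3 was at 0 in 2C BC females and in 2C CB males and between 0.877 and 1 in the 3 groups of 4C (limma adjusted p = 0.911). Morf4l1 was at 0 in 2C CB males and between 0.962 and 0.993 at 4C (limma adjusted p = 0.572). Plscr1, with a value of 0 in 2C CB males alone, was not tested. These values of 0 in Ap1s3, Morf4l1 and Plscr1 are those of 1 cell each. P4ha3 (0.376), H2-K2 (0.373), Gm8615 (0.263), Usf1 (0.2), Serinc3 (0.163) and 6030443J06Rik (0.131) had strain parts above 0 with adjusted p between 0.0794 and 0.469 by limma.

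Oocytes hold the alleles of 1 strain, which shows how the deposited allele assignment behaves for these genes. Of 25 members with a count of 10 or more in a B6 oocyte, 10 had a share there, and of 5048 eligible genes 53.8% did. In B6 oocytes the reads of Serinc3, Msh4, Nt5dc1, Pigp, Mcc and Adtrp were assigned to B6, with a Cast share of 0.0769 or less in each oocyte. The B6 allele of those genes can therefore be seen by the assay. Gm9376 was the exception, with a Cast share of 1 in the only B6 oocyte that had a share, although that oocyte holds no Cast allele. Among eligible genes with a share in B6 oocytes, 3.68% had a mean Cast share above 0.15. Morf4l1 had counts of up to 374 in the 4 B6 oocytes and Hyou1 up to 36, and neither had a share in any of them. In Cast oocytes Morf4l1 had a share in 1 of 3, all of it Cast. For the members with no share in a B6 oocyte, how visible the B6 allele is to the assignment was not tested.

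The RNA levels of oocytes differed between the strains for part of the members, in both directions. No test was made, because each strain gave 1 group of oocytes from unnamed animals. Of 32 members with 20 or more counts over all oocytes, 7 were past 4-fold higher in Cast oocytes and 5 past 4-fold higher in B6 oocytes. Over all 9836 genes with as many counts 10.9% were past 4-fold higher in Cast and 17.2% past 4-fold higher in B6 oocytes. The median log2 ratio of Cast over B6 was 0.47 for members and -0.056 for all genes.

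P4ha3 and Pnpla3 stood apart. P4ha3 was at 989, 1022 and 1193 CPM in the 3 Cast oocytes and at 2.15, 0.720, 9.03 and 1.33 CPM in the 4 B6 oocytes, a 318-fold difference of summed counts (95% counting interval 237 to 436). Without the B6 oocyte at 9.03 CPM its log2 ratio went from 8.31 to 9.56. Pnpla3 was at 213, 183 and 204 CPM in Cast and at 2.46, 0.720, 1.17 and 0.533 CPM in B6 oocytes, a 164-fold difference (101 to 288), with a log2 ratio of 7.36, or 7.95 without the B6 oocyte at 2.46 CPM. The oocytes of the strains did not overlap for either gene. Pim1 was at 0 to 1.33 CPM in B6 and at 5.12, 8.23 and 8.03 CPM in Cast oocytes (13.97-fold, 6.47 to 35.9). 2010109I03Rik was at 0 to 2.62 CPM in B6 and at 25.2, 23.9 and 14.2 CPM in Cast oocytes (12.2-fold, 7.85 to 19.9). Atic was at 0.307 to 3.2 CPM in B6 and at 11.4, 6.90 and 7.80 CPM in Cast oocytes (5.81-fold, 3.51 to 10.1). Mnd1 (4.14-fold, 3.06 to 5.66) followed, and Gm6639 (5.64-fold, 2.28 to 16.7), whose oocytes overlapped between the strains. Without 1 B6 oocyte the log2 ratio went from 3.80 to 5.13 for Pim1, from 2.54 to 3.35 for Atic, from 2.50 to 4.74 for Gm6639 and from 2.05 to 2.69 for Mnd1. Mnd1 was under 4-fold without any 1 of 4 other oocytes (log2 1.78 to 1.96), and Gm6639 had fewer than 20 counts without 1 Cast oocyte. The intervals cover counting error only, since amplified reads are not independent molecules.

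Ptges, Gm9376, Sema3e and Adtrp were higher in B6 oocytes, although their embryos read them mainly from Cast. Ptges was at 6.46, 9.36, 0.874 and 1.87 CPM in B6 oocytes and at 0.394, 0 and 0 CPM in Cast oocytes, with 57 counts against 1 (45.5-fold, 7.84 to 1827). Its log2 ratio of Cast over B6 was -5.51, was -4.87 and -4.77 without either Cast oocyte at 0 CPM, and was -3.52 against the floor of 3 counts without the Cast oocyte that held the count. Adtrp was at 69.8, 68.8, 102.5 and 77.3 CPM in B6 and at 23.6, 20.2 and 16.5 CPM in Cast oocytes (4.10-fold, 3.53 to 4.79). The lowest B6 oocyte stood above all Cast oocytes for both genes. Gm9376 (7.84-fold, 3.40 to 22.2) and Sema3e (4.90-fold, 3.04 to 8.31) overlapped between the strains. Without 1 oocyte Gm9376 went from a log2 ratio of -2.97 to -3.57, and Sema3e (-1.98) and Adtrp (-1.89 and -1.90) came under 4-fold. Levels of Morf4l1 (98.8 and 119 CPM in B6 and Cast oocytes) and Hyou1 (7.72 and 7.97 CPM) were apart by 1.203-fold and 1.03-fold.

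**Figure D4:**
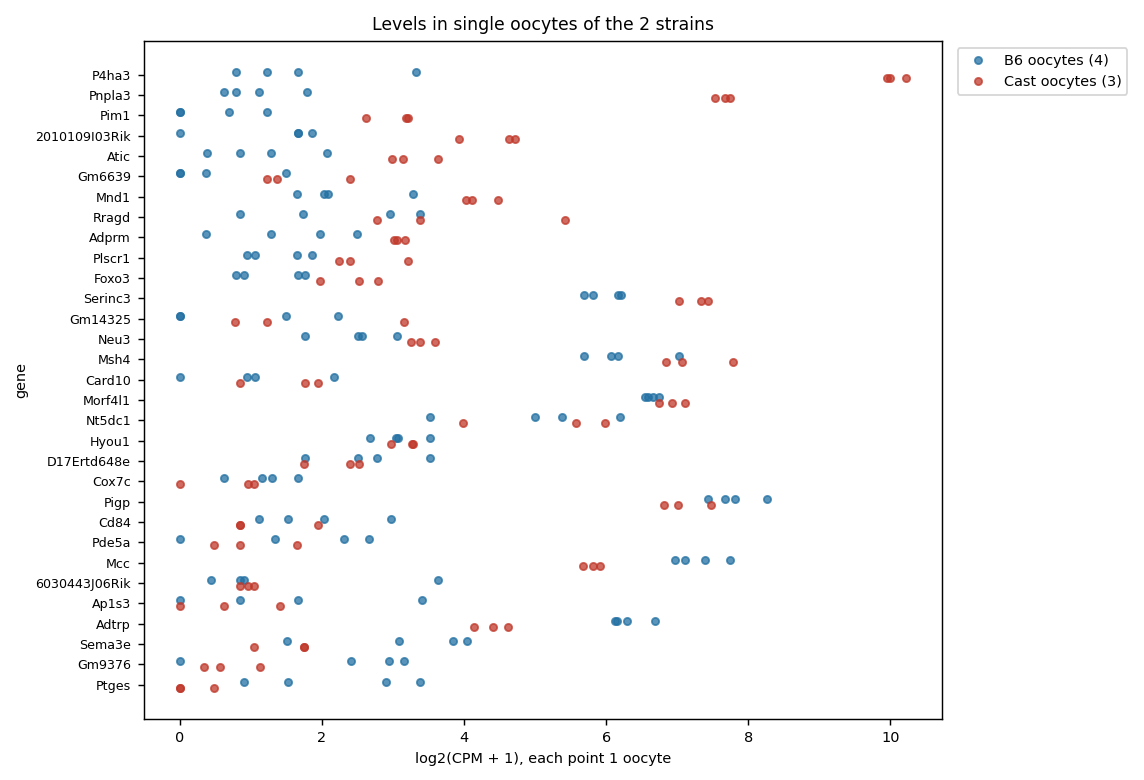
Level of 31 of the 32 members with 20 or more counts in all oocytes, as log2(CPM + 1), in 4 B6 (blue) and 3 Cast (red) oocytes. The red points of P4ha3 and Pnpla3 lie far to the right of the blue ones, and those of Ptges to the left.

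Total levels of some members changed over development. From 8C to 64C 5 members rose and 5 fell of 53 (edgeR quasi-likelihood test, Benjamini-Hochberg adjusted p under 0.05, 4 against 4 groups in a fit of 25 wild-type groups). Among eligible genes 11.1% rose and 12.7% fell, and among all 16622 genes tested 6.79% rose and 11.4% fell. The median log2 change was 0.41 for members and 0.22 for eligible genes. In the sentences that follow CPM are those of a group's summed counts. The group of 8C CB males is 1 cell.

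Ptges rose from 19.98, 10.1, 125 and 21.7 CPM in the 8C groups (BC females, BC males, CB females, CB males) to 730, 1463, 915 and 568.2 CPM at 64C (log2 change 4.39 ± 0.81, SE, edgeR adjusted p = 0.000665). Oas1a rose from at most 0.491 CPM at 8C to 15.4 to 53.98 CPM at 64C (log2 change 6.79 ± 1.76, SE, edgeR adjusted p = 0.00967). Oas1g rose from at most 0.548 CPM to 11.5 to 43.6 CPM (log2 change 7.01 ± 1.67, SE, edgeR adjusted p = 0.00536). The groups of the stages did not overlap for any of them. The counts of Oas1a and Oas1g were ranked almost alike over 102 cells (Spearman 0.966, a description), and reads of such close paralogs can be split between them, so these are not separate results. Pigp (log2 change 2.14) and Morf4l1 (1.79) rose as well, and were not called without the 1 cell of 8C CB males by edgeR (adjusted p = 0.0867 and 0.0653). Pigp was also not called without 8C BC males, 8C BC females, 64C BC females or 64C CB females.

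P4ha3 fell from 5.73, 10.8, 52.6 and 3.93 CPM at 8C to at most 0.0419 CPM at 64C, where 5 counts remained over all cells (log2 change -9.08 ± 2.12, SE, edgeR adjusted p = 0.00473). D17Ertd648e fell from 101, 162, 77.4 and 52.4 CPM to 3.44, 8.73, 2.45 and 2.29 CPM (log2 change -4.36 ± 0.54, SE, edgeR adjusted p = 8.85e-06). Adtrp fell from 130, 142, 370 and 474 CPM to 2.40, 40.01, 10.6 and 18.1 CPM (log2 change -4.12 ± 0.72, SE, edgeR adjusted p = 0.000398). For all 3 the highest 64C group lay below the lowest 8C group. Ap1s3 (-2.65) and G730013B05Rik (-2.50) fell too, but Ap1s3 was not called by edgeR without 6 of the 8 groups left out in turn (adjusted p = 0.0568 to 0.102) and G730013B05Rik not without 4 of them (0.0535 to 0.0848). With the authors' normalized signal P4ha3 changed by -3.31 and was not called by limma (adjusted p = 0.251), nor was Ap1s3 (0.120).

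**Figure D5:**
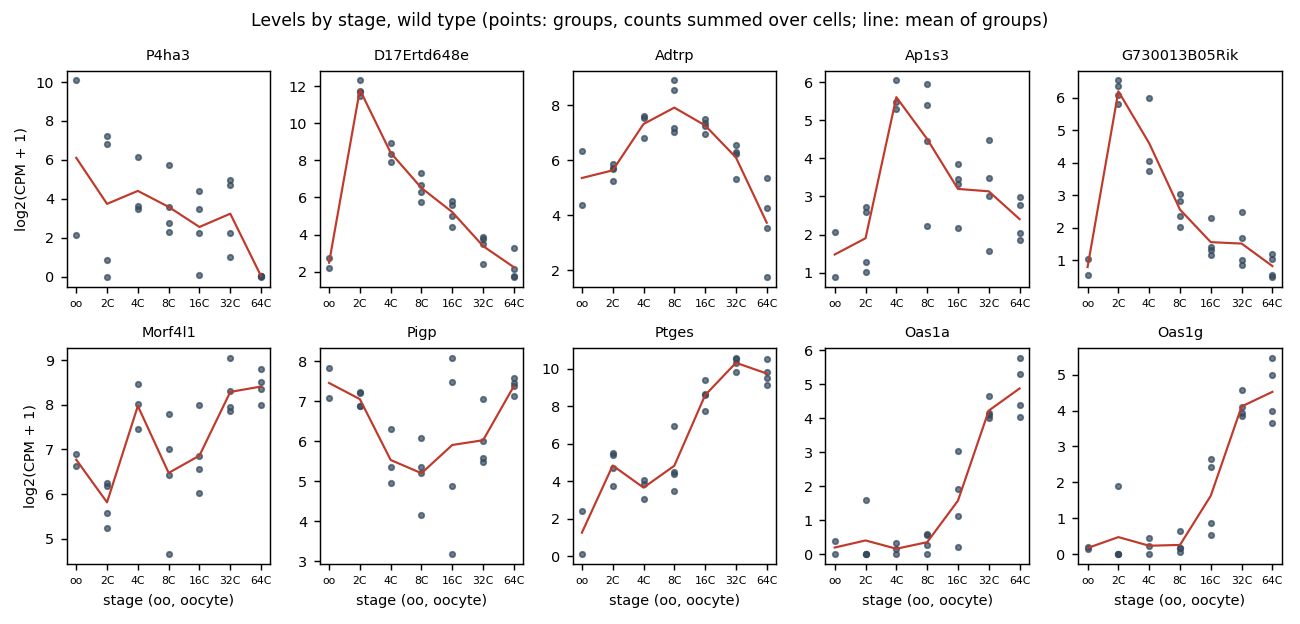
Levels of the 10 members called between 8C and 64C, as log2(CPM + 1), over wild-type stages from oocyte to 64C. Each point is 1 group with its counts summed over cells and the line joins the means. D17Ertd648e and G730013B05Rik peak at 2C, and Ptges, Oas1a and Oas1g climb after 8C.

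Between 2C and 8C 11 members rose and 3 fell by edgeR. Among eligible genes 23.9% rose and 6.18% fell, and among all genes tested 12.7% and 7.73%. Members had to be read in 8C or later cells, which favours a rise. Cd84 rose from 15.1 to 21.7 CPM over the 4 groups of 2C to 564 to 2228 CPM at 8C (log2 change 7.0 ± 0.82, SE, edgeR adjusted p = 3.21e-06). Rragd rose from 0.705 to 6.78 CPM to 146 to 232 CPM (log2 change 6.28 ± 0.88, SE, edgeR adjusted p = 2.01e-05), and Gm13498 from at most 0.471 CPM to 52.3 to 102.3 CPM (log2 change 8.90 ± 1.13, SE, edgeR adjusted p = 8.05e-06). No group of 2C reached the lowest 8C group for these 3. Shc3, Acsf2, Gm16223, Gm6756, Gm8615, Ap1s3, Adtrp and Morf4l1 rose too, Shc3 most (log2 change 5.64) and Morf4l1 least (1.4). Gm16223 was not called by edgeR without 6 of the 8 groups in turn (adjusted p = 0.0507 to 0.0904), Morf4l1 not without the 2C BC male, 8C BC females or 8C CB females (0.0548 to 0.165) and Shc3 not without the 2C CB males (0.0556). D17Ertd648e (-4.73), G730013B05Rik (-3.34) and Mcc (-2.44) fell, and Mcc was not called by edgeR without any 1 of the 8 groups in turn (adjusted p = 0.0519 to 0.229). With counts scaled by library totals alone, without TMM, 9 members rose and 5 fell, and Gm16223 (0.0776) and Morf4l1 (0.157) were not called by edgeR. Over all genes tested 2111 rose and 1285 fell with TMM, and 1324 and 1796 without it. With the authors' signal Acsf2, Gm8615, Mcc, Morf4l1 and Shc3 were not called by limma (adjusted p = 0.0594 to 0.726).

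Between oocyte and 2C 7 members rose and 5 fell by edgeR. The fit set 4 groups of 2C against 2 oocyte groups, 1 per strain, so the difference between the strains enters the spread. Among eligible genes 25.2% rose and 20% fell, and among all genes tested 13.8% and 13.2%. These changes are relative to the TMM scaling, which sets the median gene near 0 (log2 0.037). Library totals alone moved that median to 1.45, with 3497 genes higher and 882 lower against 2289 and 2191 by edgeR, and with 13 members higher and 1 lower. D17Ertd648e rose from 5.75 and 3.61 CPM in B6 and Cast oocytes to 2878 to 5113 CPM at 2C (log2 change 8.17 ± 0.89, SE, edgeR adjusted p = 9.05e-07). Pisd-ps1 rose from 0.378 and 1.33 CPM to 55.6 to 99.6 CPM (log2 change 5.12 ± 0.90, SE, edgeR adjusted p = 0.000136). H2-K2 had no reads in any oocyte and 219 counts at 2C, at 0.507 to 10.5 CPM in the 4 groups. Against a floor of 3 counts over all oocytes the sum is at least 51.8-fold higher, or 41.8-fold at the lower counting limit. G730013B05Rik, Gm9376 and Chtf8 rose by 3.79 to 5.27 on the log2 scale. Without the B6 or without the Cast oocytes, H2-K2 and Chtf8 were not called by edgeR (adjusted p = 0.0744 to 0.120), nor was Gm9376 (0.053) without the Cast oocytes or G730013B05Rik (0.0506) without the B6 oocytes.

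Msh4 fell from 81.4 and 161 CPM in B6 and Cast oocytes to 1.06 to 15.2 CPM at 2C (log2 change -5.49 ± 1.16, SE, edgeR adjusted p = 0.000914), and Morf4l1 from 98.8 and 119 CPM to 36.8 to 74.8 CPM (log2 change -2.30 ± 0.56, SE, edgeR adjusted p = 0.00308). Neither overlapped between oocytes and 2C. By summed counts Morf4l1 was 1.72-fold lower at 2C, and with library totals alone its log2 change was -0.91 (edgeR adjusted p = 0.261), so its fall is one relative to the TMM scaling. Msh4 was called with library totals too (-4.11, edgeR adjusted p = 0.0075). Mcc (-3.24), Rragd (-2.88) and Pnpla3 (-3.14) overlapped and rested on 1 kind of oocyte. Without the B6 oocytes Mcc was at -1.94 (edgeR adjusted p = 0.349), without the Cast oocytes Rragd was at -1.71 (0.291), and Pnpla3 turned to 3.12 without the Cast oocytes (0.194). Mcc and Rragd were also not called without the 2C CB female (0.0597 and 0.05002), and Pnpla3 not without the 2C BC females, the 2C BC male or the 2C CB males (0.0561 to 0.0764). With library totals alone Mcc, Rragd and Pnpla3 were not called by edgeR (0.157 to 0.209), and with the authors' signal neither they nor Morf4l1 were called by limma (0.0718 to 0.751).

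Total levels were also compared between deletion and wild-type CB females of 8C to 64C, the study's own comparison, with stage as a block. By edgeR 0% of 14304 genes were called, and so 0 of 53 members. At an unadjusted p under 0.05, 411 genes stood higher and 101 lower, among them the members Cap1 and Hddc3. Cap1 stood at 7.99, 22.8, 53.5 and 72.1 CPM in deletion females of 8C, 16C, 32C and 64C and at 2.23, 2.42, 0.649 and 17.2 CPM in wild types (log2 difference 3.09 ± 0.89, SE, edgeR adjusted p = 1). Hddc3 was at -2.40 ± 0.998 (SE). DESeq2 called 172 genes higher and 25 lower, and of the members only Cap1 (log2 difference 3.06, adjusted p = 0.00972).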

How the data were processed

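Per the labels' protocols, polyadenylated RNA of single mouse oocytes and blastomeres was reverse transcribed, amplified and read from 1 end only. The submitters' processing notes name TopHat2 2.1.0, SAMtools, HTSeq 0.6.1 and the mm10 build. The authors deposited raw read counts per gene, an allelic share (a fraction from 0 to 1) per gene and cell, and a normalized expression signal, with no scale stated for it. The share was read as the paternal one, since X-linked genes of male cells had means of 0.00542 (BC) and 0.0161 (CB).

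Shares were used where the count was 10 or more, and averaged over the cells of each of 31 groups. Group means were tested with limma 3.58.1 (moderated, trended prior): Cast share minus 0.5 in deletion groups, and BC against CB at 2C and 4C. Counts summed by group were tested with edgeR 4.0.16 (quasi-likelihood, TMM, filterByExpr) in R 4.3.3. The SE printed with an edgeR log2 change is derived from the test, as the absolute log2 change divided by the square root of the F statistic. All p-values were adjusted by Benjamini-Hochberg over all genes tested, and both tests were first tested on simulated data. Oocyte ratios compare summed counts with 95% exact counting intervals. Oocytes of 2 strains and cells of 1 group are not replicates of a condition, although the edgeR fit takes the 2 strains' oocyte groups as 1 stage. No 2 cells of a group agreed within sampling noise. Alternatives were DESeq2 1.42.0, an arcsine square root scale for shares, other filters and scalings (library totals without TMM was added after seeing the data), the authors' signal with a pseudocount of 1, and leaving out each group. Depth limits precision: cells had 2.54 M to 40.05 M counts, and reads behind a share are unknown. The members, gene lists and tests were chosen with earlier results of these data known. The values of 1 member are not reported here, though counts over the members include it. Every other member is named, and values are given in full for the 10 highest by CPM, those under 0.85 in deletion groups or under 0.5 at 2C and 4C, the 3 largest rises and falls from 8C to 64C, the 5 largest Cast and 3 largest B6 oocyte ratios, members within 1 Mb of another, and members read as Cast in B6 oocytes.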

Additional observations from a re-analysis of the deposited data

Results flagged for a closer look

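In 13 of 50 members with 4 or more deletion groups, 1 group lay farther from the others in Cast share than Dixon's test allows at the 95% level. Chance flags about 1 in 20 groups of unbounded values. That rate does not hold for shares that stand at 1 in the other groups, where any lower value is set apart, so no excess is read from the count. Most of these are small departures from 1. The group apart was 0.961 in 16C females for Ap1s3, 0.974 in 16C females for Sbp, 0.979 in 32C females for 2010109I03Rik, 0.997 in 32C females for Pim1, 0.989 in 32C males for Cd84 and 0.9998 in 8C females for Gm6639. The 64C females stood apart for Tas1r1 (0.9904), Gm6756 (0.985), Trim47 (0.918) and Hddc3 (0.875). Larger departures were those of Serinc3 in 64C males (0.760), H2-K2 in 32C males (0.5, over 2 cells) and Foxo3 in 8C females (0, in 1 cell).

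Among 32 members measured in 4 B6 oocytes, 1 oocyte stood apart in level for 3. Gm6639 reached 1.80 CPM, Mnd1 8.74 CPM and 6030443J06Rik 11.4 CPM in a single oocyte, each above the other 3.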

How the results depend on the processing

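The number of members was 53, and 28 with 15 cells per cross, 23 with thresholds of 0.90 and 0.10, 145 with the median over cells, and 22 (without 32C) to 41 when 1 stage was left out. Calls toward Cast in deletion groups were 24 where a value in 6 of 6 groups was asked for, and at 2C and 4C 0 with 4C alone. From oocyte to 2C, higher and lower members numbered 14 and 3 with the authors' signal, 11 and 9 with DESeq2, 13 and 1 with library totals without TMM (chosen after seeing the data), 3 lower without the 2C cell of conflicting labels, and 3 to 9 and 3 to 6 without single groups. From 8C to 64C they numbered 10 higher with DESeq2, 3 lower with the authors' signal or with no filter, and 3 to 6 and 3 to 5 without single groups. From 2C to 8C the authors' signal gave 7 and 9, and library totals 5 lower. Between deletion and wild-type females DESeq2 called 1 member higher. Members higher in Cast oocytes were 13 past 2-fold, 4 past 8-fold and 4 by mean CPM. Those higher in B6 oocytes were 9 past 2-fold, 2 past 8-fold, 2 by mean CPM and 2 by the authors' signal. Pnpla3 between oocyte and 2C turned to 3.12 without Cast oocytes and was at -3.98 without B6 oocytes. Fewer samples or genes enter several of these settings, and otherwise the cause was not tested. Of the calls, 36 of 42 in deletion groups, 1 of 15 at 2C and 4C (13 where 4C alone, with 1 CB group, is set aside), 5 of 10 from 8C to 64C, 8 of 14 from 2C to 8C and 3 of 12 from oocyte to 2C were made under every alternative in which the gene was tested. The 1 at 2C and 4C was Gm14325, which was tested in 9 alternatives, where others had up to 13. No paired analysis was possible because the groups compared hold averaged or summed cells and share no replicate number. Stage, cross or sex entered some fits instead. Some cell numbers carry letters, and the labels do not say what a shared number means.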

Other observations

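Oas1a and Oas1g, close paralogs, both had a share in 68 cells. In 38 of these the shares of the pair lay within 0.01 of each other, and the largest difference was 0.656.

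A share was given for a smaller percentage of the members' gene and cell pairs than of those of eligible genes. In BC cells 71.3% of the members' pairs of gene and cell with a count of 10 or more had a share, against 79.1% for eligible genes. In CB cells these were 75.4% and 81.1%, and in deletion cells 73.1% and 81.0%.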
